A study of Homo sapiens with 16 samples.

Results

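The NRF2 antioxidant genes followed here were 9 of the 40663 gene symbols in the deposited table, 26907 of which had a count in at least 1 library: HMOX1, NQO1, GCLM, GCLC, TXNRD1, SRXN1, AKR1C1, AKR1B1 and SOD2. They were taken as a named set and not by a cut-off on any value, but with earlier results of these data known. All 9 passed the filter on low counts in each of the 6 comparisons. Bulk RNA sequencing had been carried out on 16 libraries of Ccd18-Co, colon fibroblasts of a human cell line used at up to passage 20, in 4 groups of 4. The unstimulated group (replicates 1 to 4) carries DMSO in its titles, whereas the headers of its columns read none. The other 3 groups had first received 3 pulses of a cytokine mix, each pulse lasting 72 h in medium without serum and followed by 96 h of recovery. The mix held TNF, OSM and IL-17A, all at 10 ng/ml, and IL-1B at 0.1 ng/ml. Concentrations are those of the sample labels; the study's text also names others for IL-1B and for the compounds used below. After 1 week of rest these cells were given, for 5 days, DMSO (the vehicle group, replicates 13 to 16), 250 nM belinostat, an inhibitor of histone deacetylases (replicates 17 to 20), or 10 uM GSK-J4, an inhibitor of H3K27 demethylases (replicates 21 to 24). RNA was taken 2 weeks after the compounds had been withdrawn, so the values describe what remained and not the acute response. All libraries came from a single cell line, and nothing in the labels says that the replicates were separate experiments, so the p-values measure the spread between these 16 libraries.

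NRF2, encoded by NFE2L2, is a transcription factor that KEAP1 holds in the cytoplasm and marks for degradation until oxidants or electrophiles modify KEAP1. It then enters the nucleus, pairs with a small MAF protein and binds antioxidant response elements, sites for which the repressor BACH1 competes, at HMOX1 above all. The genes it switches on make glutathione (GCLC and GCLM), reduce oxidised protein thiols (TXNRD1 and SRXN1), remove quinones and reactive carbonyls (NQO1, AKR1C1 and AKR1B1) and break down haem (HMOX1). SOD2, the mitochondrial superoxide dismutase, differs from the rest in being a textbook target of NF-kB, the factor that TNF and IL-1B activate.

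The deposited values were estimated counts summed per gene symbol (14.4 M to 19.5 M per library) and are given below as counts divided by each library's size factor (normalized counts). All 9 fibroblast markers examined were present (COL1A1 at 68880 to 116700 normalized counts), while KRT20 (epithelium), CD3E (T cells) and SOX10 (glia) were at 0 in all 16 libraries. Of the other markers examined, CD68 (148 to 474 normalized counts), CD14 (30.2 to 247) and VWF (13.3 to 39.1) were present in every library, and the rest reached at most 14.5 (CDH1). Belinostat replicate 17 lay far from replicates 18 to 20 for several of the 9 genes, and results that depend on it are given with and without it.

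The proximal promoter is shown where it holds the core of the antioxidant response element, since that element is what defines NRF2 targets. RefSeq windows on GRCh38.p14, from 250 bases before to 50 bases after the annotated start, were found for 8 of the 9 genes (HMOX1 had no entry). The core TGACNNNGC, searched on both strands, occurred in the windows of GCLM and TXNRD1, and 13.3% of all 35116 promoter windows hold it. The AP-1 element TGANTCA is in 7.71% of windows and occurred in none of the 8. A match to these letters is a description of the sequence, and a window without one says nothing about the factor. Capitals mark the matches. The first sequence lies on the minus strand at chr1:93909431-93909489. The others lie on the plus strand at chr12:104215655-104215779 and chr12:104286905-104286963, at separate starts of the gene.
GCLM: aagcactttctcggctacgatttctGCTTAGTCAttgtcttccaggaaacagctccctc
TXNRD1, first start: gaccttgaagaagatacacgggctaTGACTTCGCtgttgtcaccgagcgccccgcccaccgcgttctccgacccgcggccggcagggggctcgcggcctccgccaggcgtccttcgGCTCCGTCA
TXNRD1, second start: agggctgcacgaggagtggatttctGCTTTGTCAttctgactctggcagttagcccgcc
The GCLM match, the match at the second TXNRD1 start and GCTCCGTCA at the first TXNRD1 start read on the opposite strand. GCTCCGTCA spans positions -8 to 1 relative to that start, so it includes the first base of the gene. The 100 bases before the start of SRXN1, the gene with the widest range of group means, are given for comparison (minus strand, chr20:653201-653300) and hold no match, so nothing is in capitals.
SRXN1: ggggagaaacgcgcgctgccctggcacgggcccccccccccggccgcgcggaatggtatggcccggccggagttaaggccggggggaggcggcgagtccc

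Per kilobase of the reference transcript in GENCODE v44 (MANE Select), AKR1B1 (3329 ± 706 normalized counts per kilobase, SD, n = 4) and TXNRD1 (3252 ± 138) had the highest levels in unstimulated cells, with overlapping libraries. NQO1 followed at 1719 ± 318 per kilobase. GCLM (741 ± 53.7) and AKR1C1 (562 ± 145) overlapped, as did AKR1C1 with SRXN1 (523 ± 32.4) and SOD2 (516 ± 38.3). HMOX1 (151 ± 16.2) and GCLC (82.4 ± 8.96), the catalytic subunit of the glutathione-making ligase, were lowest. This order rests on the lengths used, which are long for SOD2 and AKR1C1 (14167 and 6543 bases). Divided by the median length of each gene's annotated transcripts, the means per kilobase were 17240 for TXNRD1, 8967 for SOD2, 7326 for AKR1B1, 4691 for NQO1, 4284 for AKR1C1, 1991 for GCLM, 523 for SRXN1, 222 for GCLC and 216 for HMOX1.

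In the comparison of vehicle with unstimulated cells and of each compound with vehicle, at most 1 of the 9 genes passed the test, and in both cases it was SRXN1. After the cytokine pulses and vehicle, 0 of 9 differed from unstimulated cells by DESeq2 at an adjusted p under 0.05 (1 of 9 at an unadjusted p under 0.05, and 0 by edgeR), against 1.74% of all genes tested. With GSK-J4, 1 of 9 differed from vehicle (SRXN1, higher), against 1.92% of all genes. With belinostat, 1 of 9 differed from vehicle (SRXN1, lower), against 6.26% of all genes, and this call was lost under 10 of 13 alternative settings. Belinostat against GSK-J4 gave 3 of 9, all lower under belinostat (SRXN1, TXNRD1 and HMOX1), against 12.2% of all genes. Relative to unstimulated cells, belinostat gave 2 of 9 (HMOX1 and GCLM, both lower) against 10.3%, and GSK-J4 gave 2 of 9 (SRXN1 higher, GCLM lower) against 5.55%. Comparisons that name the same group share its 4 libraries and are not independent of each other.

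Few of the 9 genes had groups whose libraries did not overlap at all. There were 0 between vehicle and unstimulated cells, where 6.93% of all genes were separated, and 0 between belinostat and vehicle, where 11.4% were. SRXN1 and SOD2 separated GSK-J4 from vehicle (10.0% of all genes), SRXN1 separated belinostat from GSK-J4 (17.0%), HMOX1 separated belinostat from unstimulated cells (12.3%), and SRXN1 and GCLM separated GSK-J4 from unstimulated cells (11.9%). The median log2 fold change of the 9 genes was 0.03 for vehicle over unstimulated, -0.25 for belinostat over vehicle and 0.06 for GSK-J4 over vehicle, beside medians over all genes of -0.00478, 0.00288 and -0.00249.

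**Figure D1:**
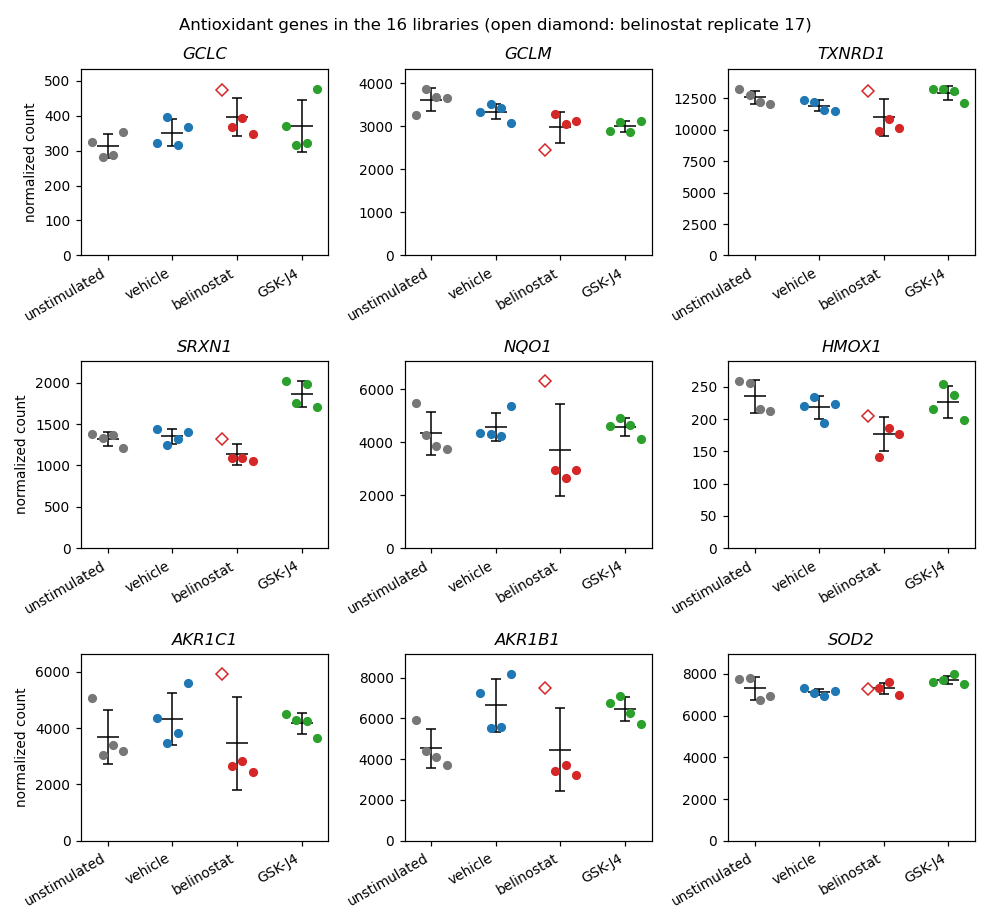
Normalized counts (vertical axis, from 0) of the 9 genes in the 4 libraries of each group (horizontal axis), with the mean and SD as a bar and whiskers; the open diamond is belinostat replicate 17. SRXN1 was higher in all 4 GSK-J4 libraries than in the other 12, and for NQO1, AKR1C1 and AKR1B1 belinostat replicate 17 lay far above the other 3 of its group.

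SRXN1 encodes sulfiredoxin, which repairs peroxiredoxins that peroxide has over-oxidised. The gene lies on the minus strand of chr20:646615-653200 in GENCODE v44 on GRCh38. The GSK-J4 libraries held 2019, 1757, 1985 and 1706 normalized counts of SRXN1, and the vehicle libraries 1439, 1246, 1314 and 1405. Unstimulated cells held 1385, 1329, 1371 and 1205. All 4 GSK-J4 libraries were thus above every unstimulated and vehicle library, which overlapped each other. SRXN1 rose 1.38-fold with GSK-J4 relative to vehicle (log2 fold change 0.47, SE 0.08, 95% interval 0.31 to 0.63; DESeq2 adjusted p = 9.79e-06), and by 0.50 on the log2 scale relative to unstimulated cells (adjusted p = 2.75e-07). Both calls held under all 13 alternative settings, with an adjusted p of 0.010 by edgeR for the comparison with vehicle.

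Under belinostat, SRXN1 stood at 1322, 1092, 1084 and 1048 normalized counts in replicates 17 to 20. Replicates 18 to 20 lay below every library of the other groups, and replicate 17 lay within the vehicle range. SRXN1 fell by 0.25 on the log2 scale relative to vehicle (95% interval -0.41 to -0.08; DESeq2 adjusted p = 0.0478), a call that was lost by edgeR (adjusted p = 0.0887), under both other filters on low counts, with only the 2 groups compared and on leaving out any of vehicle replicates 13, 15 and 16 or belinostat replicates 18, 19 and 20 (adjusted p up to 0.205). Without belinostat replicate 17 the log2 fold change was -0.33 (adjusted p = 4.66e-04). Between the compounds the difference was larger: SRXN1 was 0.61 times as abundant with belinostat as with GSK-J4 (log2 fold change -0.72, 95% interval -0.88 to -0.55; DESeq2 adjusted p = 1.55e-15), with a range of -0.80 to -0.68 over the 13 alternatives. SRXN1 shares 2292 of its 2528 exonic bases with another protein-coding gene model on the same strand, so its counts could include reads from that model.

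The 5 genes whose libraries followed SRXN1 most closely, by the root mean square distance of centred log2 values over the 16 libraries among 11740 candidates, were PTGR1 (distance 0.106), DPP4 (0.119), SQSTM1 (0.122), FGF13 (0.133) and ECM1 (0.134). PTGR1, a reductase of prostaglandins and unsaturated aldehydes, averaged 1218 normalized counts with vehicle, 1146 with belinostat and 1688 with GSK-J4. SQSTM1, which encodes p62, an autophagy receptor that binds KEAP1, averaged 10790, 8988 and 13020 normalized counts in the same groups. These 5 were picked for their likeness across the same libraries, so their values are a description.

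TXNRD1 encodes the cytosolic thioredoxin reductase, the enzyme that returns electrons from NADPH to thioredoxin (plus strand, chr12:104215779-104350307). Its libraries read 13210, 12752, 12200 and 12042 normalized counts in unstimulated cells and 12334, 12222, 11576 and 11477 with vehicle. With GSK-J4 they read 13254, 13244, 13082 and 12093, and with belinostat 13101, 9880, 10829 and 10104. Belinostat replicates 18 to 20 were thus the 3 lowest of all 16 libraries, while replicate 17 was among the highest. TXNRD1 fell by 0.23 on the log2 scale with belinostat relative to GSK-J4 (95% interval -0.38 to -0.09; DESeq2 adjusted p = 0.0168), a call that held in 5 of 13 alternatives and was lost by edgeR (adjusted p = 0.0513), with only the 2 groups compared and on leaving out any of belinostat replicates 18 to 20 or GSK-J4 replicates 21 to 23 (adjusted p up to 0.098). Relative to vehicle the TXNRD1 log2 fold change was -0.12 with belinostat (adjusted p = 0.497) and 0.12 with GSK-J4 (adjusted p = 0.657).

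GCLM and GCLC encode the modifier and catalytic subunits of glutamate-cysteine ligase, which makes the rate-limiting step of glutathione synthesis. GCLM (minus strand, chr1:93885199-93909456) read 3249, 3871, 3684 and 3661 normalized counts in unstimulated cells and 3334, 3504, 3421 and 3084 with vehicle. With belinostat it read 2448, 3286, 3055 and 3111, and with GSK-J4 2899, 3102, 2864 and 3112. Means therefore stepped down from 3616 ± 262 in unstimulated cells to 3336 ± 182 with vehicle and to 2975 ± 365 and 2994 ± 131 with the 2 compounds (SD, n = 4 each). The belinostat mean depended on replicate 17, the lowest GCLM library of the series, and replicates 18 to 20 averaged 3151. GCLM fell relative to unstimulated cells by 0.28 on the log2 scale with belinostat (DESeq2 adjusted p = 0.00799, called in 11 of 13 alternatives) and by 0.27 with GSK-J4 (adjusted p = 0.0182, called in 8 of 13). The first call was lost without unstimulated replicate 2 (adjusted p = 0.0656) and with only the 2 groups compared (0.0664), and the second without unstimulated replicates 2, 3 or 4 or GSK-J4 replicates 21 or 23 (adjusted p 0.0552 to 0.111). Neither compound passed the test against vehicle (log2 fold changes of -0.17 and -0.16, adjusted p = 0.278 and 0.513), and vehicle against unstimulated gave -0.12 (95% interval -0.27 to 0.04). Without belinostat replicate 17, GCLM gave -0.08 for belinostat over vehicle (DESeq2 adjusted p = 0.560). Over unstimulated cells it gave -0.20 in that fit (adjusted p = 0.0212), with overlapping libraries.

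GCLC (minus strand, chr6:53497341-53616970) was read at 280 to 353 normalized counts in unstimulated cells, 315 to 397 with vehicle, 348 to 472 with belinostat and 316 to 477 with GSK-J4, and all groups overlapped. Its log2 fold change was 0.17 for vehicle over unstimulated, 0.17 for belinostat over vehicle and 0.08 for GSK-J4 over vehicle, none past the test. The 95% interval for belinostat over vehicle ran from -0.09 to 0.44. In the 5 comparisons with the unstimulated or vehicle group the fitted values of GCLC were above 0 and those of GCLM below 0, although GCLC fell to -0.06 for GSK-J4 over vehicle on leaving out 1 library, and the difference between both genes was not tested. GCLC shares 305 exonic bases with the antisense gene GCLC-AS1, and the strand setting of the counting is not given in the sources used here.

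NQO1, a quinone reductase often used as the readout of NRF2 activity (minus strand, chr16:69706996-69726668), read 5492, 4254, 3839 and 3752 normalized counts in unstimulated cells. It read 4352, 4303, 4244 and 5349 with vehicle and 4622, 4908, 4637 and 4132 with GSK-J4. With belinostat it read 6305 in replicate 17 and 2940, 2656 and 2940 in replicates 18 to 20, the highest and the 3 lowest values of the series. The SD of NQO1 in the belinostat group was 46.8% of the mean, against 7.06% with GSK-J4. Belinostat over vehicle gave an NQO1 log2 fold change of -0.30 (95% interval -0.75 to 0.15; DESeq2 adjusted p = 0.619), and GSK-J4 over vehicle gave 0.00395 (-0.45 to 0.45; adjusted p = 0.998).

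AKR1C1 and AKR1B1 encode aldo-keto reductases, the first acting on steroids and reactive carbonyls and the second, aldose reductase, on glucose and lipid aldehydes. AKR1C1 (plus strand, chr10:4963253-4983283) read 5927 normalized counts in belinostat replicate 17 and 2640, 2828 and 2442 in replicates 18 to 20, beside 4365, 3462, 3839 and 5591 with vehicle. It read 5080, 3046, 3404 and 3174 in unstimulated cells and 4495, 4273, 4237 and 3650 with GSK-J4. AKR1C1 did not pass the test in any of the 6 comparisons, with a log2 fold change of -0.32 for belinostat over vehicle (95% interval -0.84 to 0.21). Its close paralogs AKR1C2 and AKR1C3, among which reads can be split wrongly, were not called against vehicle either, with log2 fold changes of -0.09 and 0.05 under belinostat. AKR1C2 read 1441 normalized counts in belinostat replicate 17 and 633 to 731 in the other 3.

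AKR1B1 (minus strand, chr7:134442356-134459284) had the second-widest range of group means among the 9 genes. It read 5918, 4378, 4092 and 3737 normalized counts in unstimulated cells and 7271, 5533, 5580 and 8189 with vehicle. It read 7489, 3419, 3711 and 3232 with belinostat and 6764, 7083, 6281 and 5719 with GSK-J4. Only unstimulated replicate 1 reached the level of the vehicle libraries. Vehicle over unstimulated gave the largest AKR1B1 value for the cytokine pulses, a log2 fold change of 0.55 (95% interval 0.01 to 1.10, unadjusted p = 0.0475; DESeq2 adjusted p = 0.549), which did not survive the adjustment. Belinostat over vehicle gave -0.57 (95% interval -1.12 to -0.03; adjusted p = 0.275), with means of 4463 ± 2027 under belinostat and 4531 ± 961 in unstimulated cells (SD, n = 4 each). Belinostat over unstimulated gave an AKR1B1 log2 fold change of -0.02 with replicate 17 and -0.39 without it (95% interval -0.74 to -0.04; adjusted p = 0.162), replicates 18 to 20 lying below every unstimulated library. GSK-J4 over unstimulated gave an AKR1B1 log2 fold change of 0.51 (adjusted p = 0.389), called only in the fit of those 2 groups alone (adjusted p = 0.00111).

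NQO1, AKR1C1 and AKR1B1 were high and low in much the same libraries. Replicate 1 was highest for all 3 in unstimulated cells, replicate 16 with vehicle and replicate 17 with belinostat, and in the GSK-J4 group replicate 22 was highest for NQO1 and AKR1B1 and replicate 21 for AKR1C1, with replicate 24 lowest for all 3. NQO1 spanned 2.37-fold and AKR1C1 2.43-fold over the 16 libraries, but the ratio of AKR1C1 to NQO1 spanned 1.49-fold (0.716 to 1.06). GCLM ran the other way in 3 groups, being lowest in replicates 1, 16 and 17. These libraries were also those with the highest share of counts on ribosomal protein genes in their groups (2.80% in replicate 1, 2.22% in replicate 16 and 2.66% in replicate 17, beside 1.94% to 1.98% in replicates 18 to 20). With GSK-J4 this did not hold, since replicate 22, highest for NQO1 and AKR1B1, had the lowest share of its group (2.08%) and the highest sum of the 9 fibroblast markers (574800 normalized counts). Replicates 1, 16 and 17 also had the highest sum of the 5 leukocyte markers in their groups (503, 522 and 733 normalized counts, up to 380, 440 and 445 in the others), as did replicate 22 (527, up to 422), and replicates 1, 16 and 17 had the lowest fibroblast sums of their groups (489100, 502000 and 431600). The part of ribosomal share and of these markers in the gene values was not tested.

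Leaving out belinostat replicate 17 changed what the belinostat group showed for these enzymes. Without it, 5 of the 9 genes were lower than with vehicle (DESeq2, adjusted p under 0.05), against 8.27% of all genes tested in that fit: AKR1B1 (log2 fold change -0.94, adjusted p = 6.93e-06), AKR1C1 (-0.71, adjusted p = 0.00849), NQO1 (-0.68, adjusted p = 2.28e-07), SRXN1 (-0.33) and TXNRD1 (-0.21, adjusted p = 6.04e-04). In each of the 5 the 3 belinostat libraries lay below all 4 vehicle libraries. Against GSK-J4 the count was 6 of 9 (14.6% of all genes), the same 5 and HMOX1, and against unstimulated cells it was 5 of 9 (9.69%), namely NQO1, TXNRD1, SRXN1, HMOX1 and GCLM. Replicate 17 was singled out for its values of these same genes, so the counts without it are not independent support, and it was kept in the other results because nothing in its label marks it as different. For CCL2, the gene with the strongest belinostat change in the cytokine-responsive list, replicate 17 (211 normalized counts) lay just below its own group (215 to 332 in the other 3) and far from vehicle (1125 to 1412). For ICAM1 of the same list it (619) lay below both the other 3 (871 to 1060) and vehicle (761 to 899). Both genes were picked after their values had been seen. The depth of replicate 17 was 18.3 M counts, against 14.4 M to 16.7 M for replicates 18 to 20. Its summed leukocyte markers came to 733 normalized counts, against 302 to 445. Over all libraries that sum was carried by CD68 (148 to 474) and CD14 (30.2 to 247), with CD3E at 0, PTPRC at no more than 5.12 and CD163 at no more than 11.4. Its summed fibroblast markers, 431600 normalized counts, were the lowest of the 16 libraries, against 495600 to 515300 in replicates 18 to 20. The part of depth and of these markers was not tested.

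**Figure D2:**
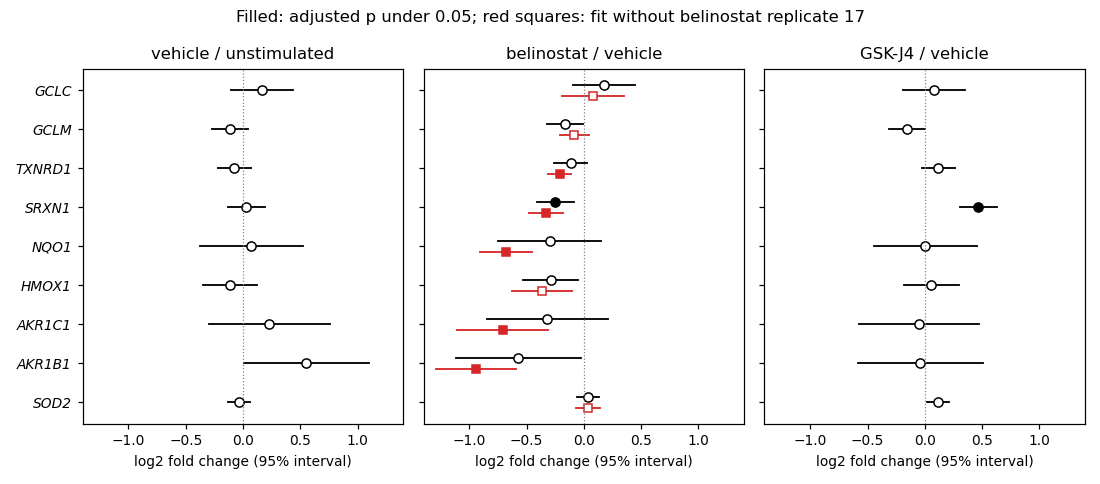
Log2 fold change (horizontal axis) with its 95% interval for the 9 genes (vertical axis) in 3 comparisons; filled symbols passed an adjusted p of 0.05, and red squares in the middle panel are the fit without belinostat replicate 17. SRXN1 is the only filled black symbol, lower with belinostat and higher with GSK-J4, and 5 red squares are filled, all to the left of 0.

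HMOX1 encodes haem oxygenase 1, which cleaves haem to biliverdin, carbon monoxide and iron (plus strand, chr22:35380361-35394214). It was lowly expressed, at 259, 255, 215 and 212 normalized counts in unstimulated cells, 221, 234, 194 and 223 with vehicle and 216, 255, 238 and 198 with GSK-J4. The belinostat libraries read 204, 142, 187 and 177, all 4 below every unstimulated library, with replicate 17 overlapping the vehicle and GSK-J4 ranges. HMOX1 fell with belinostat relative to unstimulated cells by 0.40 on the log2 scale (95% interval -0.64 to -0.16; DESeq2 adjusted p = 0.0172, edgeR 0.0339) and relative to GSK-J4 by 0.35 (adjusted p = 0.0449, edgeR 0.0607). Relative to vehicle the log2 fold change was -0.29 (unadjusted p = 0.0192, adjusted p = 0.179). The first HMOX1 call held in 8 of 13 alternatives and the second in 4 of 13. The first was lost with only the 2 groups compared and without unstimulated replicates 1 or 2 or belinostat replicates 18 or 20 (adjusted p 0.0536 to 0.111). The second was lost by edgeR, with only the 2 groups compared and with no filter on low counts. It was also lost without belinostat replicates 18, 19 or 20 or GSK-J4 replicates 21, 22 or 23 (adjusted p 0.0607 to 0.203 over all these settings).

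SOD2 (minus strand, chr6:159669069-159762529) was the most even of the 9 genes, with a 1.19-fold span over all 16 libraries. It read 7745, 7801, 6753 and 6934 normalized counts in unstimulated cells, 7322, 7082, 6953 and 7180 with vehicle and 7295, 7319, 7593 and 7002 with belinostat. With GSK-J4 it read 7616, 7710, 8008 and 7535, all 4 above the vehicle libraries by a small margin. The SOD2 log2 fold change for vehicle over unstimulated was -0.03, and its 95% interval of -0.13 to 0.06 leaves room for no more than a small rise. GSK-J4 over vehicle gave 0.11 (95% interval 0.02 to 0.21; DESeq2 adjusted p = 0.328), which passed the test in 1 of 13 alternatives, the fit with those 2 groups alone (adjusted p = 0.036). SOD2 shares 437 exonic bases with WTAP on the opposite strand and 939 with SOD2-OT1.

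Of 13 cytokine-responsive genes set beside SOD2, 3 (DESeq2, adjusted p under 0.05) were higher with vehicle than in unstimulated cells, beside 1.74% of all genes: CXCL8, a neutrophil chemokine (log2 fold change 2.36, adjusted p = 7.26e-23), C3, the central complement protein (2.02, adjusted p = 1.16e-22), and TNFAIP3, which encodes the NF-kB inhibitor A20 (0.67, adjusted p = 0.00142). CXCL8 went from 64 to 86 normalized counts in unstimulated cells to 287 to 609 with vehicle, and the SOD2 interval lies below the intervals of these 3, which were picked for having passed. The other 10 did not pass, and several of them had values as close to 0 as SOD2, such as NFKBIA (0.04), NFKB1 (0.00882) and NFKB2 (0.07). Of the 13, 5 had libraries that did not overlap, all higher with vehicle, beside 6.93% of all genes. These included ICAM1 (567 to 724 normalized counts in unstimulated cells, 761 to 899 with vehicle) and IRAK2 (87.9 to 106 and 119 to 142), neither of them called. Both were named after their values had been seen. With belinostat 5 of the 13 were lower than with vehicle, beside 6.26% of all genes, led by the monocyte chemokine CCL2 (-2.29, adjusted p = 3.11e-49) and followed by CXCL8 (-0.75), C3 (-0.62), NFKB2 (-0.32) and NFKB1 (-0.17), while SOD2 gave 0.03 (95% interval -0.06 to 0.13). With GSK-J4 1 of the 13 differed from vehicle, beside 1.92% of all genes, C3, which rose by 1.03 on the log2 scale (DESeq2 adjusted p = 7.65e-06). The filter on low counts left 13, 12 and 11 of the 13 genes tested in these 3 comparisons. Their median log2 fold change was 0.30, -0.12 and -0.04.

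**Figure D3:**
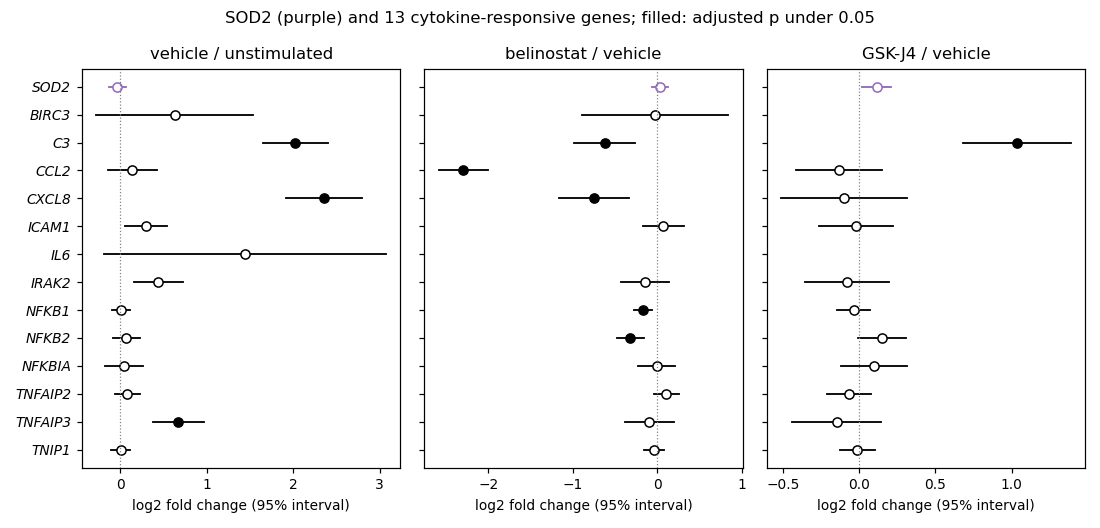
Log2 fold change (horizontal axis, scaled separately in each panel) with its 95% interval for SOD2 and 13 cytokine-responsive genes (vertical axis) in 3 comparisons; filled symbols passed an adjusted p of 0.05, and a gene removed by the filter on low counts has no symbol. SOD2 stays near 0 in all 3 panels, while CXCL8, C3 and TNFAIP3 lie to the right in the first and CCL2 far to the left in the second.

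None of the 3 central regulators passed the test at the RNA level. NFE2L2 ranged from 6820 to 8133 normalized counts over the 16 libraries, KEAP1 from 1789 to 2339 and BACH1 from 1845 to 2390, and no 2 groups were separated by them. For vehicle over unstimulated and for both compounds over vehicle, the log2 fold changes of these 3 genes lay between -0.07 and 0.04, and none of their 95% intervals went beyond -0.20 or 0.17. Protein level and nuclear entry of NRF2 were not measured.

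Among 75 other genes of the pathway (regulators, glutathione, thioredoxin, NADPH, iron and haem, superoxide and detoxification genes), 1 of 73 tested was called for vehicle over unstimulated, TFRC, the transferrin receptor that imports iron (log2 fold change 0.29, DESeq2 adjusted p = 9.15e-04), beside 1.74% of all genes. TFRC rose again with GSK-J4 over vehicle (0.32, adjusted p = 1.66e-04): its libraries read 1980 to 2157 normalized counts in unstimulated cells, 2424 to 2615 with vehicle and 2982 to 3191 with GSK-J4, with no overlap at either step. CAT, which encodes catalase, was the other of the 2 genes called of 71 tested with GSK-J4, beside 1.92% of all genes (0.25, adjusted p = 0.00413), at 1490 to 1654 normalized counts against 1279 to 1376 with vehicle.

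With belinostat over vehicle, 4 of 72 tested were called, a share near the 6.26% of all genes. SESN3, a sestrin, rose from 52 to 75 normalized counts with vehicle to 117 to 155 with belinostat (log2 fold change 1.09, DESeq2 adjusted p = 1.85e-08). The iron exporter gene SLC40A1 (0.25, adjusted p = 0.0410) and ABCC1, an exporter of glutathione conjugates (0.19, adjusted p = 0.00179), were also higher. OSGIN1, an oxidative stress-induced growth inhibitor, fell by 0.51 (adjusted p = 0.00616), and at 162, 125, 143 and 146 normalized counts all 4 belinostat libraries, replicate 17 included, were below the vehicle libraries (189 to 228). Belinostat against GSK-J4 gave 10 of 72, near the 12.2% of all genes, of which the 6 with the largest changes were SESN3 (1.30), the secreted glutathione peroxidase GPX3 (0.74), the extracellular superoxide dismutase SOD3 (-0.59), SQSTM1 (-0.53), OSGIN1 (-0.51) and TFRC (-0.35). The median log2 fold change of the genes tested among the 75 was -0.04 for vehicle over unstimulated (73 tested), -0.03 for belinostat over vehicle (72) and -0.00632 for GSK-J4 over vehicle (71). The GPX3 call (adjusted p = 0.0489) rested on belinostat replicate 17 and was lost without it (log2 fold change 0.41, adjusted p = 0.154).

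Without replicate 17, 14 of 72 were called for belinostat over vehicle, 11 lower and 3 higher, beside 8.27% of all genes. The higher ones were SESN3 (log2 fold change 1.10), SLC40A1 (0.31) and ABCC1 (0.18). The following 8 of the 11 lower ones were named after their values had been seen. Among the enzymes that supply NADPH, TKT (log2 fold change -0.42, adjusted p = 2.45e-07) and TALDO1 (-0.37) fell. The ferritin genes FTL (-0.37, adjusted p = 0.0226) and FTH1 (-0.30, adjusted p = 0.0360) fell, as did TXN, which encodes thioredoxin (-0.40), SQSTM1 (-0.39), AKR1C2 (-0.45) and OSGIN1 (-0.58). TKT read 3148 to 3475 normalized counts in replicates 18 to 20, 4335 to 4492 with vehicle and 5978 in replicate 17.

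**Figure D4:**
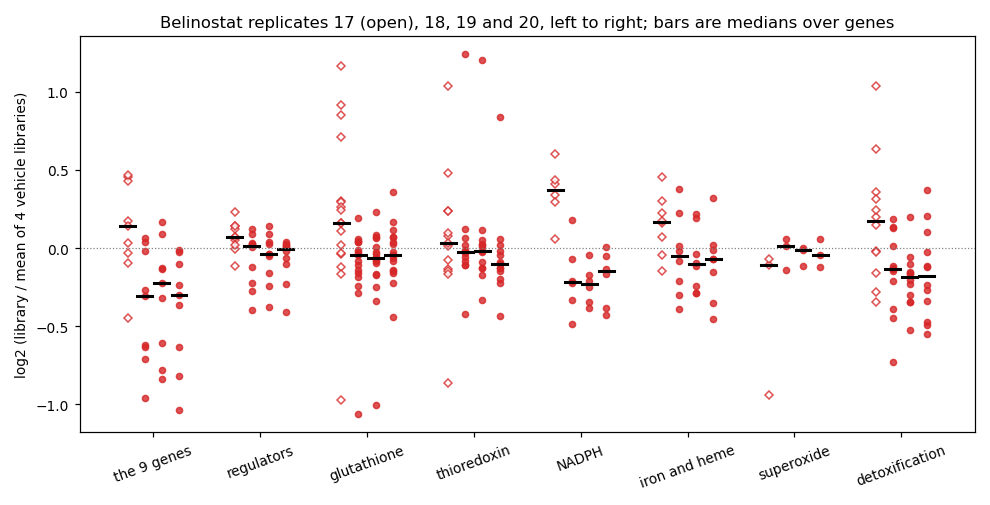
Log2 ratio of each belinostat library to the mean of the 4 vehicle libraries (vertical axis) for genes with a mean of at least 50 normalized counts, by role (horizontal axis); within a role the columns are replicates 17 (open), 18, 19 and 20, and bars are medians. The median of replicate 17 lies above 0 in every column except superoxide. Those of the other 3 lie below 0 in the columns for the 9 genes, thioredoxin, NADPH, iron and haem, and detoxification. The medians of the regulators stay close to 0. Without replicate 17, the regulators SQSTM1 and MAFG were called lower than with vehicle (log2 fold change -0.39 and -0.25). They were picked after their values had been seen, and no other regulator was called in that fit.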

How the data were processed

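The authors quantified the reads with kallisto (version 0.48.0 and build hg38 per the submitters' processing notes, which also list FastQC 0.11.9 and MultiQC 1.14) and deposited estimated counts per gene symbol; 28% of the values had decimals. The transcriptome release, the summing of transcripts to symbols and the strand setting are not given in the sources used here. Libraries had been made from total RNA with a NEBNext Ultra II kit. Groups came from the sample titles, and 0 columns were left unused. Replicate pairs differed by 2.97 to 31.6 times the sampling noise, so no library was counted as a repeat of another.

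The estimated counts were rounded to whole numbers and tested with DESeq2 1.42.0 (R 4.3.3; Wald test, median-of-ratios size factors, group as the only factor, all 16 libraries in 1 fit, two-sided, Benjamini-Hochberg adjustment over all genes that passed independent filtering, threshold 0.05). A gene filtered out has no adjusted p and is called not tested. The script was tested on simulated data. Alternatives were edgeR 4.0.16, TMM size factors, 2 filters on low counts, fits of only the 2 groups compared and leaving out each library. All 9 genes and NFE2L2, KEAP1, BACH1, AKR1C2 and AKR1C3 were named, with every called cytokine-responsive gene in the 3 comparisons shown for that list, at most 6 called pathway genes per comparison (mean of at least 50 normalized counts, largest change) and the 5 genes nearest to the member with the widest range of group means; genes named after their values were seen are marked as such. The 9 genes and all lists were chosen with earlier results of these data known. Positions and lengths were read from GENCODE v44 and promoter windows from RefSeq (GRCh38.p14); the annotation is not stated to be the one the authors used.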

Additional observations from a re-analysis of the deposited data

Results flagged for a closer look

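In each group of 4 libraries, a value whose gap to its neighbour took up most of the group's range was noted for the 9 genes. Of 36 groups examined (9 genes in 4 groups), 6 held such a value; chance gives about 1 in 20 groups, and the genes are not independent of each other.

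Of the 6, 4 were belinostat replicate 17, each time the highest library of its group. It read 6305 normalized counts for NQO1 (next 2940), 5927 for AKR1C1 (next 2828), 7489 for AKR1B1 (next 3711) and 1322 for SRXN1 (next 1092). The other two were vehicle replicate 16 for NQO1, at 5349 normalized counts (next 4352), and GSK-J4 replicate 24 for TXNRD1, which was the lowest of its group at 12093 (next 13082).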

How the results depend on the processing

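Directions for the 9 genes were stable where a call was made: over 702 recomputed values (9 genes, 6 comparisons, 13 alternatives each) 0 called values reversed, 39 calls were lost and 13 were gained. The counts of genes called moved more. For belinostat over vehicle, 1 of the 9 genes was called in the reported fit and 0 by edgeR, with at least 10 counts in at least 4 libraries, without a filter on low counts and with only the 2 groups compared; leaving out 1 library gave 0 to 5, the 5 without belinostat replicate 17. For belinostat over GSK-J4 the count of 3 became 1 by edgeR and with only the 2 groups, and 1 to 6 on leaving out 1 library (6 without belinostat replicate 17). For belinostat over unstimulated cells the count of 2 became 0 with only the 2 groups and 0 to 5 on leaving out 1 library, with 0 without unstimulated replicate 2 and 5 without belinostat replicate 17. For GSK-J4 over unstimulated cells the 2 became 3 with only the 2 groups (AKR1B1 added) and 1 to 2 on leaving out 1 library, 1 without unstimulated replicates 2, 3 or 4 or GSK-J4 replicates 21 or 23. For GSK-J4 over vehicle the 1 became 2 with only the 2 groups.

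Of the 75 other pathway genes, the fit with only the 2 groups gave 2 in place of 1 for vehicle over unstimulated and 8 in place of 2 for GSK-J4 over vehicle. Leaving out 1 library gave 1 to 2 for vehicle over unstimulated (2 without unstimulated replicate 1), 3 to 14 for belinostat over vehicle and 8 to 21 for belinostat over GSK-J4, the highest of both without belinostat replicate 17. The 5 cytokine-responsive genes lower with belinostat became 3 by edgeR and 2 to 5 on leaving out 1 library (2 without vehicle replicate 16, 3 without vehicle replicate 13 or belinostat replicate 18). Over all genes, calls by edgeR were 166 in place of 282 for vehicle over unstimulated and 91 in place of 253 for GSK-J4 over vehicle. With only the 2 groups they were 542 for GSK-J4 over vehicle and 876 in place of 1461 for belinostat over unstimulated cells. For belinostat over vehicle the 889 became 711 by edgeR and 750 with only the 2 groups. For belinostat over GSK-J4 the 1795 became 1631 and 1623, and for GSK-J4 over unstimulated cells the 930 became 787 and 993. The cause of these shifts was not tested. TMM moved no comparison's median by more than 0.00954 on the log2 scale. No paired analysis was possible because the replicate numbers are not shared between groups. Depth was sufficient to count the 9 genes in every library, lowest for HMOX1.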

Other observations

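Belinostat replicate 17 also differed from replicates 18 to 20 in pathway genes outside the 9. Of genes with a mean of at least 50 normalized counts, 294 of all 11741 (2.5%) were at least 1.5-fold higher in it than the mean of the other 3 and 385 were as much lower. The higher ones included 3 of the 9 genes, 4 of 17 glutathione genes, 2 of 6 NADPH genes, 2 of 8 iron and haem genes, 2 of 12 detoxification genes, 1 of 13 thioredoxin genes and 0 of 10 regulators, 3 superoxide genes and 11 cytokine-responsive genes. The lower ones included 1 glutathione, 1 thioredoxin, 1 superoxide and 1 cytokine-responsive gene. CHAC1, which degrades glutathione, read 291 normalized counts in replicate 17 and 62.3 to 95.5 in the others. SLC7A11 and SLC3A2, the subunits of the cystine importer, were 1.67 and 1.87 times the mean of the others. In the opposite direction, TXNIP, which binds and inhibits thioredoxin, read 6884 against 11340 to 13000, and SOD3 918 against 1709 to 1778. The genes were picked after their values had been seen, a comparison with 1 library has no test, and no value of another group enters it.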
